A study of Mus musculus with 18 samples.

Results

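The endoderm transcription factors Gata4, Gata6, Sox17, Sox7, Foxa1, Foxa2, Foxa3 and Hnf4a were followed as 8 gene symbols chosen by name, out of 26157 symbols in the day-2 count table and 54114 in the table of later stages. The experiment forced expression of the homeobox gene Dlx2 in mouse embryonic stem (ES) cells to ask how it affects their differentiation toward ectomesenchyme, the mesenchyme that forms much of the face. All cells came from a line with a tdTomato reporter at Msx1, a homeobox gene of craniofacial mesenchyme. The 14 libraries analysed form 7 groups with 2 libraries each. At day 2 these were embryoid bodies (EBs) of a line with inducible Dlx2 overexpression and EBs of a line with inducible GFP overexpression. Both were taken as formed with 1 µg/ml doxycycline, although their column headers name only the line. At days 8 and 16, cells of inducible Dlx2 EBs that had received doxycycline were separated by FACS, on the Msx1 reporter, as a positive (Msx1-positive) and a negative (Msx1-negative) fraction. ES cells, labelled WT and untreated, were the undifferentiated baseline. The sorted groups hold no GFP arm, and ES cells differ from them in genotype label, doxycycline, EB culture and sorting, which cannot be told apart here.

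Endoderm forms more than once in the mouse embryo. Primitive endoderm of the blastocyst, which builds the visceral and parietal yolk sac, is set by Gata6, followed by Gata4, Sox17 and Sox7, while definitive endoderm, the source of the gut, liver and pancreas, uses Sox17 and the Foxa factors. Foxa1, Foxa2 and Foxa3 are forkhead factors that can open closed chromatin, and Hnf4a is a nuclear receptor of visceral endoderm, liver and gut. Several of these genes also work elsewhere: Gata4 and Gata6 in heart mesoderm, Sox7 and Sox17 in endothelium, and Foxa1 and Foxa2 in the floor plate and notochord.

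Foxa1, Foxa2 and Foxa3 differed from one another in the groups where each was highest, so their promoter sequences are shown for comparison. In the table of RefSeq promoters used here (GRCm38.p6), 4 of the 8 genes were matched, namely Foxa1, Foxa2, Foxa3 and Hnf4a. Each line gives the 201 bases from 250 to 50 before a RefSeq start, the outermost one in that table, on the strand of the gene, with capitals marking a match to the FOXA letters TGTTTAC or TGTTTGC or TGTTTGT on either strand.
Foxa1 (chr12:57546161-57546361, minus strand): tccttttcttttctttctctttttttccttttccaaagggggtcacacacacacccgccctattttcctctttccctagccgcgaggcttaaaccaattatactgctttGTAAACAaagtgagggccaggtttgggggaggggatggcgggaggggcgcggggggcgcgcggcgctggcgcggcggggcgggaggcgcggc
Foxa2 (chr2:148047019-148047219, minus strand): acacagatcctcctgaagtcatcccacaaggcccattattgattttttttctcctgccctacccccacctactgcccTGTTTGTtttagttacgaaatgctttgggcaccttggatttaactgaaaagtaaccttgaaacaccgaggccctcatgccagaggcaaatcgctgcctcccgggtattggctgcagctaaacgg
Foxa3 (chr7:19023589-19023789, minus strand): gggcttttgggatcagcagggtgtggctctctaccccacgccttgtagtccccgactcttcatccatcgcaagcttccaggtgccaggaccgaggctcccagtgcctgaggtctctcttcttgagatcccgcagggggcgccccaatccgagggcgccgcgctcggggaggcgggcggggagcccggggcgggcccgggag
GENCODE has longer Foxa1 transcripts that begin further upstream, so the Foxa1 window lies within the gene bounds given later but in no GENCODE exon. It holds 1 match, 141 to 135 bases before the RefSeq start, and the Foxa2 window holds 1 match at 173 to 167 bases. These letters are not in the Foxa3 window. Among 32851 RefSeq promoter windows of the same length, 10.4% held a match. The GATA letters AGATAA or TGATAA (14.2% of all windows), the SOX letters ACAATG or ACAATA (14.6%) and the HNF4 letters CAAAGTCC (0.935%) occurred in none of the 3 windows shown. Foxa2 has 3 RefSeq windows in all, and the innermost, not shown, holds the GATA letters AGATAA at 183 to 178 bases before that start. A match is a description of the letters and not a binding site.

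The day-2 libraries held 26211608 to 41552818 counts, and those of the later stages and ES cells 53797597 to 107770730. Levels are in CPM, the count scaled to library size after TMM normalisation, and means are given ± SD (n = 2). The tables were scaled separately, so levels were tested only within a table. Dlx2, the forced gene, stood at 4528 ± 266 CPM in Dlx2 EBs and at 4 counts in both GFP libraries together. It stood at 1203 ± 94 CPM in day-8 Msx1-positive, 270 ± 1.8 in day-8 Msx1-negative, 315 ± 37 in day-16 Msx1-positive and 139 ± 10 in day-16 Msx1-negative cells, and at 220 ± 2.0 CPM in the libraries labelled WT ES cells. The ES-labelled libraries thus held far more Dlx2 than GFP EBs did, although they were labelled WT, and every direction against them is a direction against the libraries labelled ES. Msx1, the sorting gene, was at 43.8 ± 4.1 against 1.46 ± 0.62 CPM in Msx1-positive and Msx1-negative cells at day 8, and at 77.7 ± 5.6 against 0.785 ± 0.046 CPM at day 16. The labels do not state whether the 2 libraries of a group came from separate cultures, so p-values measure the spread between libraries, which may be technical. An exact test of 2 libraries against 2 cannot give a two-sided p below 0.333. All calls come from edgeR's quasi-likelihood test with Benjamini-Hochberg adjustment over all genes tested, at an adjusted p below 0.05. Changes are log2 fold changes ± SE.

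**Figure D1:**
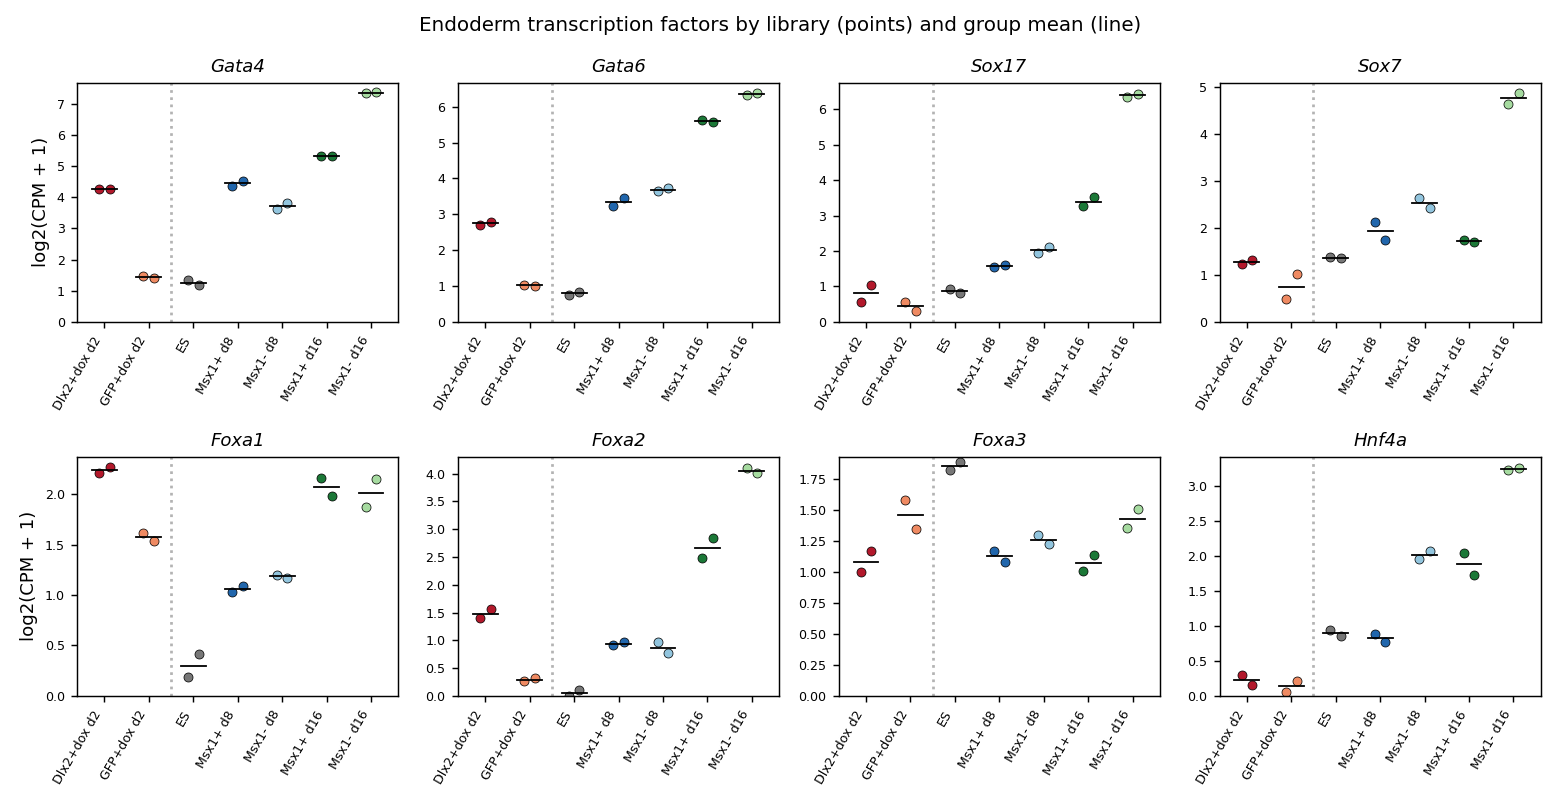
Level of each of the 8 genes in every library as log2(CPM + 1), with points for the 2 libraries of a group and a line at their mean. Groups run from day-2 EBs (left of the dotted line, scaled separately) to ES cells and the fractions sorted at days 8 and 16. Day-16 Msx1-negative cells are highest for Gata4, Gata6, Sox17, Sox7, Foxa2 and Hnf4a, ES cells for Foxa3, and Dlx2 EBs for Foxa1.

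At day 2, Gata4, Gata6 and Foxa2 were already higher in Dlx2 than in GFP EBs, by 5.54-fold to 10.6-fold, Foxa1 and Sox7 by less than 2.0-fold, and Sox17 and Foxa3 were not called. Gata4 (chromosome 14, 63198922 to 63271692 on GRCm38), a zinc finger activator of endoderm and heart genes, was at 18.2 and 18.4 CPM in Dlx2 EBs, against 1.78 and 1.66 CPM in GFP EBs. The replicates nearly coincided and the groups stood far apart, a rise of 3.41 ± 0.15 (adjusted p = 5.2e-15). Its paralog Gata6 (chromosome 18, 11052064 to 11085635) was at 5.55 and 5.93 CPM with Dlx2, against 1.05 and 1.01 CPM with GFP. It rose by 2.47 ± 0.22 (adjusted p = 1.64e-09). Foxa2 (chromosome 2, 148042877 to 148046969), which is needed for foregut and node, was at 1.65 and 1.94 CPM in Dlx2 EBs and at 0.203 and 0.242 CPM in GFP EBs, where it had 5 and 6 counts. Its rise was 2.99 ± 0.43 (adjusted p = 2.23e-06). Foxa1 (chromosome 12, 57540628 to 57546916), the paralog that acts beside Foxa2 in lung and gut, was at 3.62 and 3.82 CPM with Dlx2 and 2.07 and 1.9 CPM with GFP, and it rose by 0.91 ± 0.22 (adjusted p = 0.000933). Per kilobase of exon Foxa1 had the higher level of the pair in both kinds of EB, while the fitted difference between EBs was 2.99 for Foxa2 and 0.91 for Foxa1.

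The SoxF genes, which encode HMG-box factors, had few counts at day 2. Sox17 (chromosome 1, 4490931 to 4497354), a factor of primitive and definitive endoderm, had 21 and 37 counts in Dlx2 EBs, against 12 and 6 in GFP EBs. In CPM the lower Dlx2 library (0.476) lay just under the higher GFP library (0.487), so the groups overlapped, and the difference of 1.05 ± 0.54 was not called (adjusted p = 0.0917). Sox7 (chromosome 14, 63943673 to 63950732) was at 1.34 and 1.47 CPM with Dlx2, against 0.406 and 1.01 CPM with GFP. Its rise of 0.98 ± 0.39 (adjusted p = 0.0306) was carried unevenly by the GFP libraries: it was 0.46 (adjusted p = 0.337) without GFP replicate 1 and 1.77 (adjusted p = 0.00134) without GFP replicate 2. It was also not called without Dlx2 replicate 1 (adjusted p = 0.101), without Dlx2 replicate 2 (adjusted p = 0.162) or by DESeq2 (adjusted p = 0.131). Foxa3 (chromosome 7, 19013284 to 19023538), the paralog of liver and gut, was at 0.997 and 1.24 CPM with Dlx2 and 1.99 and 1.53 CPM with GFP. The difference of -0.66 ± 0.31 was not called (adjusted p = 0.0669), but it was without GFP replicate 2 (-0.85, adjusted p = 0.0333). Hnf4a (chromosome 2, 163506808 to 163572910) had 10 and 4 counts in Dlx2 EBs, against 1 and 4 in GFP EBs, and was too low to be tested.

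Of the 8 genes, 7 passed the filter on low counts at day 2, 5 were called higher and 0 lower. Of all 18650 genes tested, 34.1% were called higher and 33% lower, so a call by itself was common. The 7 had a median change of 1.05, against 0.02 for all genes tested.

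The counts of each list at day 2 stand against 34.1% of all genes called higher and 33% lower. Among the partners of these factors at day 2, the list of 25 extraembryonic endoderm genes had 21 tested, of which 10 rose and 8 fell, with a median of 0.16. The members with the largest changes were Pdgfra, a growth factor receptor of primitive endoderm and mesenchyme (7.79 ± 0.096), the basement membrane genes Lama1 (2.34 ± 0.068) and Col4a1 (2.17 ± 0.054), and the endocytic adaptor Dab2 (2.04 ± 0.10). Nr5a2 (13.3 ± 2.5 against 48.9 ± 4.3 CPM) and Lrp2 (26.8 ± 2.1 against 92.9 ± 6.5 CPM) were lower in Dlx2 than in GFP EBs. The uptake receptor gene Cubn stood at 0.406 ± 0.0021 CPM in Dlx2 EBs and 0.364 ± 0.0012 CPM in GFP EBs. The list for definitive endoderm and its induction had 3 of 18 tested genes higher and 13 lower (median -0.86). Within it Gsc (3.87 ± 0.42) and Lhx1 rose, both expressed in the organiser, and Trh and Tdgf1, the Nodal co-receptor, fell by 3.85 and 2.63. Trh and Tdgf1 were also at 187 ± 5.0 and 1615 ± 20 CPM in the ES-labelled libraries, and all 8 pluripotency genes fell in Dlx2 EBs (median -1.49), among them Nanog by 2.08 and Pou5f1 by 2.01. Heart mesoderm genes rose in 9 of 11 tested and fell in 1 (median 1.53), among them Nkx2-5 at 6.67 ± 0.17 CPM in Dlx2 EBs against 0.992 ± 0.15 in GFP EBs. Of 11 endothelial genes tested, 6 fell and 2 rose (median -1.15), with the VEGF receptor Kdr at 1.32 ± 0.011 against 19.6 ± 0.61 CPM. The part of these other programmes in the changes of Gata4, Gata6 and Sox7 was not tested. In bulk RNA, fewer cells of a type and less RNA per cell cannot be told apart, and this holds for every comparison.

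At day 8, sorting on Msx1 divided the 8 genes. Gata4 was higher in Msx1-positive cells, Gata6, Sox17, Sox7 and Hnf4a were lower, and the 3 Foxa genes were not called. Gata4 was at 19.5 and 22.2 CPM in Msx1-positive cells, against 11.3 and 13.0 CPM in Msx1-negative cells. The fractions did not overlap, with a difference of 0.78 ± 0.083 (adjusted p = 1.29e-06). Gata6 went the other way, at 8.43 and 9.94 CPM in Msx1-positive cells and 11.6 and 12.2 CPM in Msx1-negative cells. Its difference was small, -0.36 ± 0.088 (adjusted p = 0.00264), and was called under each alternative run. Hnf4a had the largest difference of the 8 at this stage, with 0.851 and 0.706 CPM in Msx1-positive cells, against 2.87 and 3.2 CPM in Msx1-negative cells (-1.97 ± 0.22, adjusted p = 1.93e-06).

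Both SoxF genes were lower in day-8 Msx1-positive cells. Sox17 was at 1.94 and 2.05 CPM there, against 2.87 and 3.31 CPM in Msx1-negative cells (-0.62 ± 0.13, adjusted p = 0.000832). Sox7 was at 3.35 and 2.33 CPM in Msx1-positive cells and at 5.2 and 4.34 CPM in Msx1-negative cells (-0.77 ± 0.17, adjusted p = 0.00156). The Foxa genes stood between 0.70 and 1.46 CPM in all 4 day-8 libraries. Their differences were -0.23 ± 0.24 for Foxa1 (adjusted p = 0.468), 0.15 ± 0.23 for Foxa2 (adjusted p = 0.627) and -0.25 ± 0.27 for Foxa3 (adjusted p = 0.473). In all, 1 of the 8 was called higher and 4 lower, where 30.4% of 22294 genes tested were called higher and 24.3% lower. The median difference was -0.31, against 0.06 for all genes tested.

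At day 16, 6 of the 8 genes were lower in Msx1-positive cells, by 1.69-fold to 11.3-fold. The fitted difference was larger in size than at day 8 for Gata4, Gata6, Sox17, Sox7 and Foxa2. For Hnf4a it was not, at -1.64 against -1.97 at day 8. Sox7 showed the largest difference: it was at 2.36 and 2.26 CPM in Msx1-positive cells, against 23.9 and 28.1 CPM in Msx1-negative cells (-3.49 ± 0.18, adjusted p = 2.94e-10). Sox17 was at 8.7 and 10.4 CPM in Msx1-positive cells and at 80.6 and 85.7 CPM in Msx1-negative cells. Its difference was -3.12 ± 0.10 (adjusted p = 1.75e-12), and the fractions did not overlap for either SoxF gene.

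Gata4, which had the highest level per kilobase of the 8 in both day-16 fractions, was at 39.2 and 39.5 CPM in Msx1-positive cells, against 163 and 165 CPM in Msx1-negative cells. Its direction was the opposite of that at day 8, at -2.06 ± 0.077 (adjusted p = 9.84e-12). Gata6 was less divided, at 48.4 and 46.9 CPM in Msx1-positive cells and 78.8 and 82.5 CPM in Msx1-negative cells (-0.76 ± 0.079, adjusted p = 7.64e-07). Msx1-positive cells thus held Gata4 and Gata6 in quantity even though they had the lower level of both.

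Among the forkhead genes at day 16, the fractions differed in Foxa2 alone by the test used. Foxa2 was at 4.6 and 6.17 CPM in Msx1-positive cells, against 16.1 and 15.1 CPM in Msx1-negative cells (-1.54 ± 0.17, adjusted p = 1.95e-06). Foxa1 overlapped between the fractions, at 3.48 and 2.96 CPM in Msx1-positive cells and 2.67 and 3.45 CPM in Msx1-negative cells (0.07 ± 0.22, adjusted p = 0.799). Foxa3 was at 1.0 and 1.2 CPM in Msx1-positive cells, against 1.55 and 1.83 CPM in Msx1-negative cells. Its difference of -0.62 ± 0.27 was not called (adjusted p = 0.063) but was with a filter of at least 1 CPM in 2 libraries (adjusted p = 0.0441). Hnf4a was at 3.13 and 2.31 CPM in Msx1-positive cells and at 8.37 and 8.52 CPM in Msx1-negative cells (-1.64 ± 0.20, adjusted p = 3.68e-06). With 6 of 8 called lower and 0 higher, the background was 31% of genes called lower and 31.1% higher, and the median of the 8 was -1.59 against -0.02 for all genes tested.

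**Figure D2:**
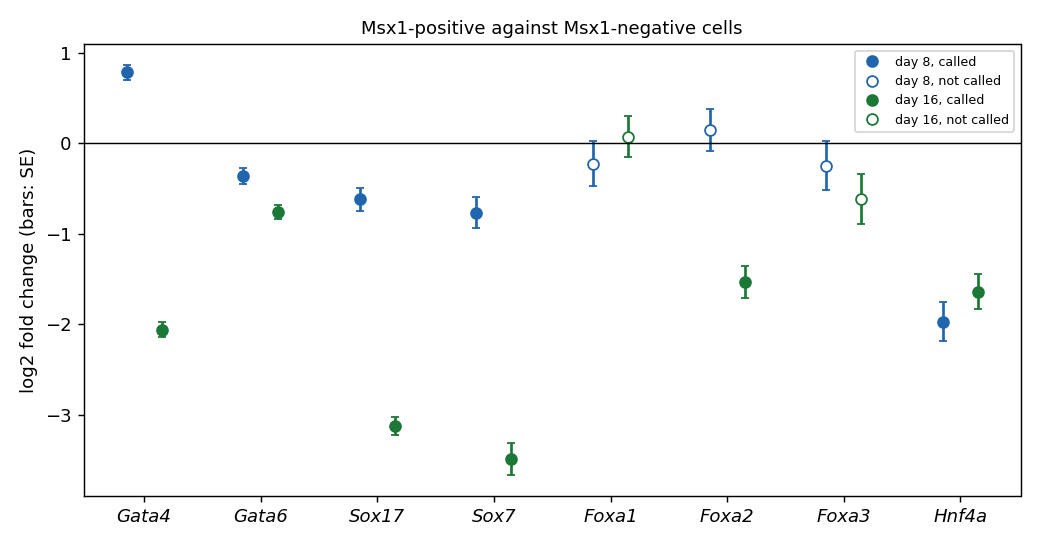
Log2 fold change of Msx1-positive over Msx1-negative cells for each gene at day 8 (blue) and day 16 (green), with bars of 1 SE and open symbols where the adjusted p was 0.05 or more. Gata4 is at 0.78 at day 8 and -2.06 at day 16, Sox17 and Sox7 lie below -3 at day 16, and Hnf4a is at -1.97 and -1.64.

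The change of the Msx1 difference with time was tested as an interaction, day 16 minus day 8. It was called for 5 of the 8 genes, each with the Msx1-positive fraction lower relative to Msx1-negative cells at day 16, where 18.3% of all genes tested were called in that direction and 10.3% in the other. Gata4 changed by -2.84 ± 0.11 (adjusted p = 3.49e-10), Sox7 by -2.72 ± 0.25 (adjusted p = 1.19e-06), Sox17 by -2.50 ± 0.16 (adjusted p = 4.53e-08) and Foxa2 by -1.68 ± 0.29 (adjusted p = 0.000443). The change of Gata6 was small, at -0.40 ± 0.12 (adjusted p = 0.0202). It was no longer called without day-16 Msx1-negative replicate 2 (adjusted p = 0.0749), day-16 Msx1-positive replicate 2 (0.0635), day-8 Msx1-negative replicate 1 (0.113), day-8 Msx1-negative replicate 2 (0.0505) or day-8 Msx1-positive replicate 2 (0.116). For Hnf4a the change was 0.33 ± 0.29 (adjusted p = 0.439), for Foxa1 0.3 ± 0.33 (adjusted p = 0.556) and for Foxa3 -0.37 ± 0.39 (adjusted p = 0.523).

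Set against day 8, day-16 cells of both fractions had more of most of these factors. In Msx1-negative cells 7 of 8 rose and 0 fell, against a background of 19.7% of genes higher and 17.8% lower. The rises ranged from 26.99-fold for Sox17 (4.75 ± 0.11, adjusted p = 5.28e-13) and 18.7-fold for Foxa2 (4.22 ± 0.21, adjusted p = 1.15e-09) to 2.39-fold for Foxa1 (1.26 ± 0.24, adjusted p = 0.000744). Gata4 rose 13.5-fold (3.75 ± 0.086), Gata6 6.79-fold (2.76 ± 0.087), Sox7 5.44-fold (2.44 ± 0.17) and Hnf4a 2.79-fold (1.48 ± 0.20). Foxa3, at 1.69 ± 0.20 CPM on day 16 and 1.39 ± 0.09 CPM on day 8, was not called (0.28 ± 0.27, adjusted p = 0.472).

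In Msx1-positive cells 6 of 8 rose and 0 fell, with 21.1% of genes higher and 24.8% lower in the background. Foxa2 rose by 2.54 ± 0.20 (adjusted p = 7.39e-08), Gata6 by 2.37 ± 0.085 (adjusted p = 2.24e-11) and Sox17 by 2.25 ± 0.11 (adjusted p = 8.07e-10). Hnf4a followed with 1.81 ± 0.22, Foxa1 with 1.56 ± 0.23 and Gata4 with 0.91 ± 0.078. Sox7, which rose in Msx1-negative cells, was not called here: it was at 2.31 ± 0.074 CPM on day 16 and 2.84 ± 0.72 CPM on day 8 (-0.28 ± 0.18, adjusted p = 0.236). That difference was called without day-8 Msx1-positive replicate 2 (-0.54, adjusted p = 0.0275). Foxa3 was at 1.0 and 1.2 CPM on day 16 and at 1.24 and 1.12 CPM on day 8 (-0.09 ± 0.27, adjusted p = 0.812). The interaction above is also the test of these time courses against each other.

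**Figure D3:**
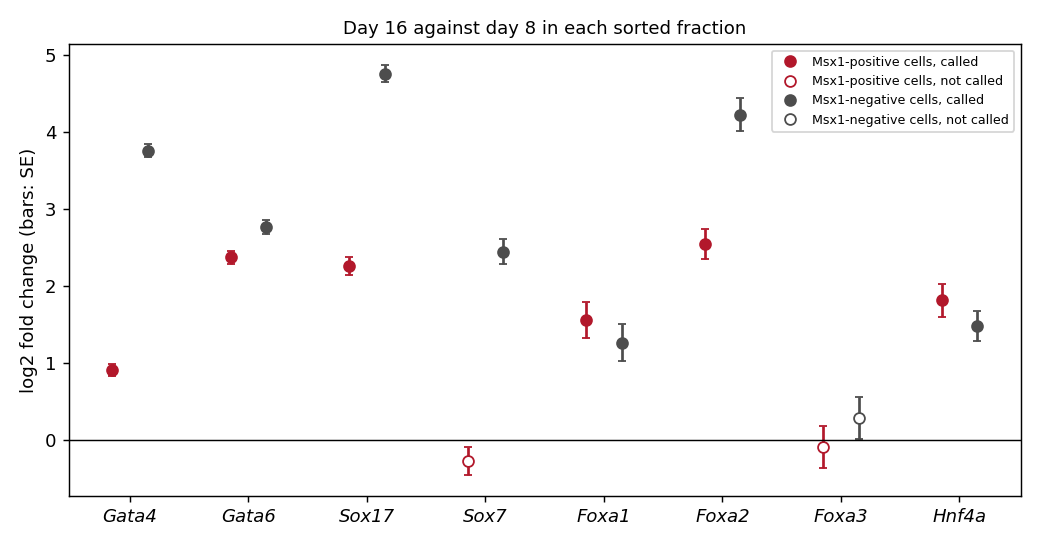
Log2 fold change of day 16 over day 8 for each gene in Msx1-positive cells (red) and Msx1-negative cells (grey), with bars of 1 SE and open symbols where not called. Sox7 is at 2.44 in Msx1-negative and -0.28 in Msx1-positive cells, and Foxa3 lies near 0 in both.

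Against the libraries labelled ES, 7 of the 8 genes rose in day-8 Msx1-negative cells, 7 in day-16 Msx1-positive cells and 7 in day-16 Msx1-negative cells, and 6 in day-8 Msx1-positive cells. The background of higher calls was 19%, 37.3%, 28.5% and 34.6% of 22504 genes, in the same order of groups. One of the 8, Foxa3, fell in day-8 Msx1-negative, day-16 Msx1-positive and day-8 Msx1-positive cells, where 14.5%, 33.7% and 26.9% of genes were called lower, and 24.5% were in day-16 Msx1-negative cells. These comparisons share their 2 ES libraries. Gata4 was at 1.52 and 1.25 CPM in cells labelled ES and rose by 3.91 ± 0.12 in day-8 Msx1-positive, 3.13 ± 0.12 in day-8 Msx1-negative, 4.82 ± 0.12 in day-16 Msx1-positive and 6.88 ± 0.11 in day-16 Msx1-negative cells. Gata6, at 0.675 and 0.784 CPM in cells labelled ES, rose by 3.66 ± 0.14, 4.02 ± 0.14, 6.03 ± 0.13 and 6.79 ± 0.13 in those groups. Gata6 therefore had a larger rise than Gata4 in day-16 Msx1-positive cells and a smaller one in day-8 Msx1-positive cells, although the difference between the 2 genes was not tested.

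Sox17 was at 0.887 and 0.764 CPM in cells labelled ES and reached 6.65 ± 0.14 above them in day-16 Msx1-negative cells, against 1.27 ± 0.17 in day-8 Msx1-positive cells, its smallest rise. Sox7 was at 1.58 and 1.57 CPM in cells labelled ES and rose by 4.04 ± 0.19 in day-16 Msx1-negative cells (adjusted p = 1.07e-11). In day-16 Msx1-positive cells its rise was 0.55 ± 0.20 (adjusted p = 0.0219), which was lost without day-16 Msx1-positive replicate 1 (adjusted p = 0.0768), ES replicate 1 (0.0688) or ES replicate 2 (0.0755). Hnf4a was not called between day-8 Msx1-positive cells and those labelled ES (0.779 ± 0.10 against 0.865 ± 0.086 CPM, -0.16 ± 0.25, adjusted p = 0.605) and rose in the other sorted groups, by 1.65 ± 0.24 to 3.29 ± 0.24.

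The Foxa paralogs, whose promoters are shown above, parted in cells labelled ES. Foxa2 was at 15.6 ± 0.74 CPM in day-16 Msx1-negative cells and had 0 and 4 counts in the libraries labelled ES, so its fitted rise of 8.58 rests on 4 counts. That rise was 7.6 without ES replicate 1 and 13 without ES replicate 2, which leaves a lone ES library at 0. Its other fitted rises depended on the same counts: 4.5 in day-8 Msx1-positive cells (3.53 and 8.95 without ES replicate 1 and 2), 4.36 in day-8 Msx1-negative cells (3.38 and 8.81) and 7.05 in day-16 Msx1-positive cells (6.07 and 11.5). Foxa1 had 7 and 17 counts in cells labelled ES and rose by 2.22 ± 0.37 in day-8 Msx1-positive, 2.44 ± 0.37 in day-8 Msx1-negative, 3.78 ± 0.36 in day-16 Msx1-positive and 3.7 ± 0.36 in day-16 Msx1-negative cells. Without ES replicate 2 these became 3.0, 3.23, 4.55 and 4.48. Foxa3 alone of the 8 was highest in cells labelled ES, at 2.53 and 2.69 CPM. It fell by 1.15 ± 0.26 in day-8 Msx1-positive cells (adjusted p = 0.000901) and by 1.24 ± 0.26 in day-16 Msx1-positive cells (adjusted p = 0.000455). In day-8 Msx1-negative cells it fell by 0.9 ± 0.26 (adjusted p = 0.013), a call lost without day-8 Msx1-negative replicate 1 (adjusted p = 0.0508), day-8 Msx1-negative replicate 2 (0.0842) or ES replicate 2 (0.0634). In day-16 Msx1-negative cells the difference of -0.62 ± 0.26 was not called (adjusted p = 0.0519), but was with a filter of 1 CPM in 2 libraries (adjusted p = 0.0498).

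The order of the 7 groups differed from gene to gene. Day-16 Msx1-negative cells stood first for Gata4, Gata6, Sox17, Sox7, Foxa2 and Hnf4a, clear of the next group in each case. For Gata4 the sequence then ran through day-16 Msx1-positive, day-8 Msx1-positive, Dlx2 EB, day-8 Msx1-negative, GFP EB and ES libraries, and no neighbouring ranges overlapped. The order for Gata6 had the day-8 fractions the other way round, ahead of Dlx2 EBs, again with no overlap. Overlap was found for Sox17 between cells labelled ES, Dlx2 EBs and GFP EBs, for Sox7 between day-8 and day-16 Msx1-positive cells, and for Hnf4a between day-8 Msx1-negative and day-16 Msx1-positive cells, between ES and day-8 Msx1-positive cells, and between Dlx2 and GFP EBs. Foxa2 overlapped between the day-8 fractions. Foxa3 overlapped between GFP EBs and day-16 Msx1-negative cells, and from day-8 Msx1-positive cells through Dlx2 EBs to day-16 Msx1-positive cells. Foxa1 was highest in Dlx2 EBs at 3.72 ± 0.14 CPM, followed by the 2 day-16 fractions, whose ranges overlapped. The spread among groups was least for Foxa3, from 1.1 ± 0.14 to 2.61 ± 0.11 CPM. Positions that set day-2 EBs against other groups cross 2 separately scaled tables and were not tested.

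To compare genes with each other, levels were divided by exonic length, as CPM per kilobase. In day-16 Msx1-negative cells Gata4 stood at 41.9 ± 0.38, Sox17 at 17.4 ± 0.76, Gata6 at 12.4 ± 0.40, Sox7 at 7.88 ± 0.91 and Foxa2 at 6.58 ± 0.31 per kilobase. Hnf4a (1.75 ± 0.021), Foxa1 (0.919 ± 0.17) and Foxa3 (0.831 ± 0.096) were far lower. In day-16 Msx1-positive cells the 2 GATA genes led, with 10.1 ± 0.065 for Gata4 and 7.32 ± 0.17 for Gata6, and Sox17 was at 2.0 ± 0.25 per kilobase. Day-2 Dlx2 EBs had Gata4 at 4.69 ± 0.022, Foxa1 at 1.12 ± 0.041 and Gata6 at 0.882 ± 0.041, while Sox17 was at 0.162 ± 0.088 and Hnf4a at 0.0354 ± 0.016 per kilobase. The EB profile was thus led by Gata4 with little Sox17, whereas Sox17 ranked second in day-16 Msx1-negative cells.

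Ratios of paralogs within a library do not depend on scaling. Gata4 over Gata6, per kilobase, was 3.86 and 3.73 in day-8 Msx1-positive cells, against 1.63 and 1.78 in Msx1-negative cells. At day 16 this was turned round, with 1.35 and 1.41 in Msx1-positive cells, against 3.44 and 3.33 in Msx1-negative cells. Dlx2 EBs had 5.48 and 5.16, and GFP EBs 2.82 and 2.73. Sox17 over Sox7 was below 1 in every day-2, ES and day-8 library and above 2 in all 4 day-16 libraries. Within day 16 it was 2.54 and 3.18 in Msx1-positive cells and 2.33 and 2.11 in Msx1-negative cells, so Sox17 exceeded Sox7 in both fractions. Foxa2 over Foxa1 reached 1.85 and 2.93 in day-16 Msx1-positive cells and 8.49 and 6.13 in day-16 Msx1-negative cells, against 0.64 and 0.713 in Dlx2 EBs and 0.138 and 0.179 in GFP EBs.

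**Figure D4:**
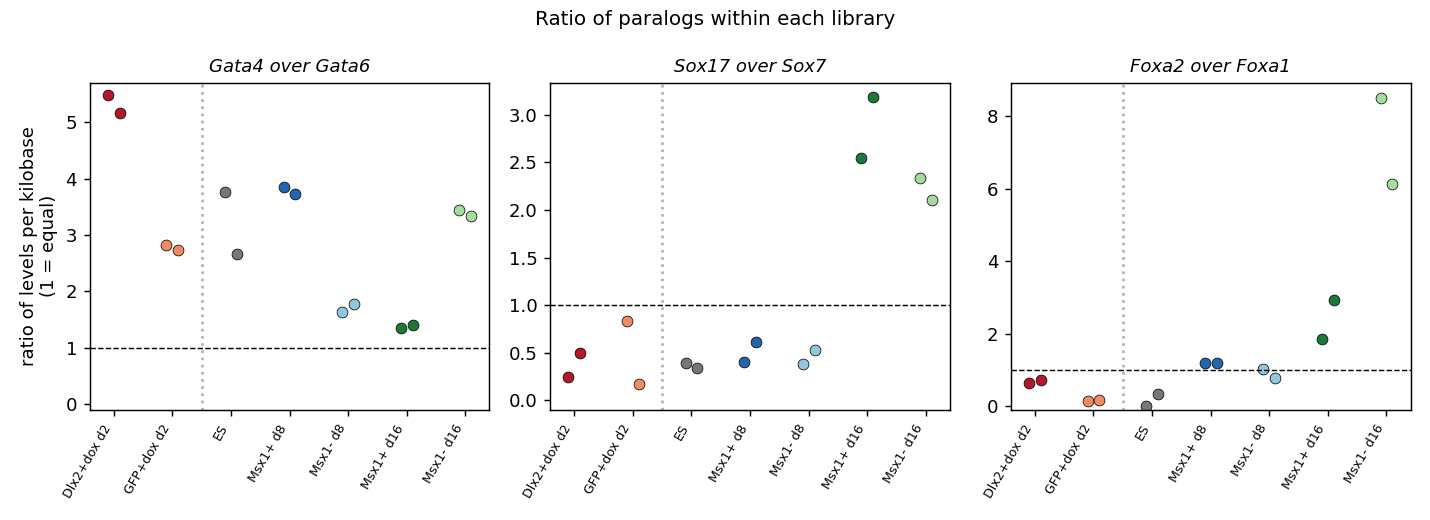
Ratio of levels per kilobase of exon for 3 pairs of paralogs in each library, with the dashed line at equality and the dotted line between separately scaled tables. Gata4 over Gata6 lies at 3.33 or above in day-8 Msx1-positive and day-16 Msx1-negative cells and below 2 in the other sorted fractions, and Sox17 over Sox7 exceeds 2 at day 16.

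Other genes of the same programmes were read from the same tests. At day 16, the extraembryonic endoderm list had 4 of 25 genes higher and 17 lower in Msx1-positive cells, with a median of -1.59 against -0.02 for all genes tested, of which 31.1% were called higher and 31% lower. Its largest differences were Lama1 (-5.13 ± 0.19), Cubn (-4.61 ± 0.14), the nuclear receptor gene Nr5a2 (-3.9 ± 0.091) and Amn, which encodes the membrane partner of cubilin (-3.48 ± 0.17). Plat, Pdgfra, Apob and Thbd had the higher mean in Msx1-positive cells. Plat was at 130 ± 4.5 against 51.3 ± 0.35 CPM and Pdgfra at 200 ± 11 against 147 ± 5.4 CPM. Apob was at 43.9 ± 5.7 against 28.5 ± 3.7 CPM and Thbd at 20.5 ± 0.96 against 15.4 ± 0.50 CPM. Against cells labelled ES, 22 of the 25 were called higher in day-16 Msx1-negative cells and 3 lower (28.5% and 24.5% of all genes). Those lower were Nr5a2, Sall4 and Apoa2, with Nr5a2 at 35.9 ± 0.58 CPM there and 87.9 ± 4.4 CPM in cells labelled ES. Col4a1, a basement membrane collagen, was at 849.5 ± 81 CPM in Msx1-positive cells and 6604 ± 105 CPM in Msx1-negative cells. The summed level of the list ran from 5987 to 6468 CPM in Msx1-positive and from 25111 to 26582 CPM in Msx1-negative libraries. Most of the Msx1-negative sum came from matrix genes. Beside Col4a1 these were Lamc1 (3873 ± 271 CPM), Lama1 (3766 ± 417), Sparc (3672 ± 188) and Col4a2 (3618 ± 161), while Amn was at 16.4 ± 0.68 CPM there. With time, 22 of the 25 rose and 3 fell in Msx1-negative cells (median 2.69, with 19.7% of all genes higher and 17.8% lower), led by Afp, alpha-fetoprotein of yolk sac and fetal liver (5.83 ± 0.24), and Lama1 (5.22 ± 0.19). In Msx1-positive cells 18 rose and 6 fell (median 1.34, with 21.1% of all genes higher and 24.8% lower). Afp was at 3.96 ± 0.31 CPM in day-16 Msx1-positive cells and 11.9 ± 0.26 CPM in day-16 Msx1-negative cells. The transthyretin gene Ttr, also of yolk sac and liver, was at 9.6 ± 0.97 CPM in day-16 Msx1-positive cells and 11.5 ± 1.3 CPM in day-16 Msx1-negative cells, and had 0 counts in cells labelled ES. At day 8 the list was evenly split between the fractions, with 10 higher and 10 lower in Msx1-positive cells (median -0.21, with 30.4% of all genes higher and 24.3% lower). Plat (3.68 ± 0.15), Afp (3.53 ± 0.25) and Pdgfra (2.85 ± 0.070) were higher there, and Nr5a2 (-2.71 ± 0.078) was lower. Afp, at 2.43 ± 0.38 CPM in Msx1-positive and 0.208 ± 0.019 CPM in Msx1-negative cells, thus stood the other way round from day 16 (interaction -5.12 ± 0.30).

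The list for definitive endoderm and its induction did not move as one. Between the fractions of day 16, 5 of 20 genes were higher in Msx1-positive cells and 11 lower (median -0.5). The largest were Tdgf1, Lefty2 and Nodal, all genes of Nodal signalling that ES cells express too, which were lower by 4.52, 2.88 and 2.86 on the log2 scale, and Mixl1, a primitive streak factor, which was higher (2.6 ± 0.32). Cer1 was at 8.46 ± 1.3 CPM in Msx1-positive and 2.04 ± 0.092 CPM in Msx1-negative cells. In the same order, Lhx1 was at 12.9 ± 0.86 against 5.7 ± 0.20 CPM, and Gsc at 4.17 ± 0.38 against 1.5 ± 0.43 CPM. Cxcr4, a surface marker of definitive endoderm, was at 3.38 ± 0.80 CPM in Msx1-positive and 2.44 ± 0.28 CPM in Msx1-negative cells and was not called (adjusted p = 0.0902). Hhex, a factor of anterior endoderm, was at 0.302 ± 0.014 and 0.294 ± 0.093 CPM there. With time, 8 of the 20 rose and 9 fell in Msx1-positive cells (21.1% and 24.8% of all genes). In Msx1-negative cells 5 rose and 6 fell (19.7% and 17.8% of all genes). Nepn and Cer1 rose by 5.11 ± 0.49 and 4.09 ± 0.30 in Msx1-positive cells. Their rises in Msx1-negative cells were 4.52 ± 0.49 and 4.05 ± 0.40, and both had 0 counts in cells labelled ES. Of the list for gut, liver and pancreas, 14 of 18 genes were tested, with 5 higher and 5 lower in day-16 Msx1-positive cells (median -0.41), near the 31.1% and 31% of all genes. Within it the albumin gene Alb was called higher, with 223 counts over the Msx1-positive libraries and 8 over the Msx1-negative ones. Nkx2-1, a factor of lung, thyroid and forebrain, was called higher with 130 and 11 counts in those fractions. Pdx1, the pancreatic factor, reached at most a mean of 0.543 CPM, in Dlx2 EBs.

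Markers of the other tissues that use these factors were counted beside them, against 31.1% of all genes called higher and 31% lower at day 16, and 30.4% and 24.3% at day 8. In day-16 Msx1-positive cells, the fraction with less Gata4 and Gata6, 9 of 12 heart mesoderm genes were called higher and 2 lower, and their summed level was 201 to 210 CPM there, against 64.5 to 69.4 CPM in Msx1-negative cells. At day 8, 10 of 12 were higher in Msx1-positive cells and 0 lower, and there Gata4 was higher and Gata6 lower. At day 16, Msx1-positive cells had 5 of 13 endothelial genes higher and 5 lower, near the share of all genes: Pecam1 (-3.82 ± 0.07) and Cdh5 (-2.51 ± 0.091) were lower, as Sox7 and Sox17 were, and Fli1 (3.65 ± 0.18) and Kdr (2.49 ± 0.14) were higher. Their summed level was 121 to 131 CPM in Msx1-positive libraries and 282 to 309 CPM in Msx1-negative ones. Much of that gap was Pecam1 alone, at 9.63 ± 0.61 CPM in Msx1-positive and 135 ± 4.0 CPM in Msx1-negative cells. Pecam1 is also known from ES cells, and in the cells labelled ES it was at 102 ± 2.2 CPM. Cdh5, at 0.224 ± 0.071 CPM in cells labelled ES, was at 10.5 ± 0.23 CPM in Msx1-positive and 59.8 ± 5.0 CPM in Msx1-negative cells. Fli1 had 2 counts over the libraries labelled ES and went the other way, at 11.8 ± 0.24 against 0.932 CPM. The third SoxF gene, Sox18, which marks endothelium, was at 2.36 ± 0.24 CPM in Msx1-positive cells and 0.548 ± 0.012 CPM in Msx1-negative cells, opposite to Sox7 and Sox17 (2.1 ± 0.27, adjusted p = 9.52e-06). Floor plate and notochord genes were higher in 4 of 8 tested and lower in 3. At day 8, 6 of these 8 were higher in Msx1-positive cells and 1 lower. Of the endothelial genes 7 of 13 were higher there and 4 lower at day 8, while Sox7 and Sox17 were lower. All 8 pluripotency genes were lower in day-16 Msx1-positive cells (median -3.92), with a summed level of 262 to 272 CPM, against 2076 to 2107 CPM in Msx1-negative cells. The part of these cell types in the levels of the 8 factors was not tested.

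Other GATA paralogs were measured in the same tests. Gata2, of blood and trophoblast, was at 29.6 ± 0.59 CPM in day-16 Msx1-positive cells and 42.1 ± 2.2 CPM in Msx1-negative cells (-0.51 ± 0.077, adjusted p = 3.84e-05). Gata3, of trophoblast and ectoderm, was higher in Msx1-positive cells (0.35 ± 0.13, adjusted p = 0.025). Gata5, the closest relative of Gata4 and Gata6, was at 1.4 ± 0.11 CPM in day-16 Msx1-positive cells, against 0.155 ± 0.035 CPM in Msx1-negative cells.

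The genes whose levels most resembled each factor over the 10 libraries of the later table were found by Pearson's r of log2(CPM + 1) among 15099 genes. These libraries fall into 5 groups, so r mostly describes group means and carries no test. Closest to Gata4 were Tex264 (r = 0.996), Irx2 (0.996) and Tinagl1 (0.995), and among the closest to Gata6 were Gprc5a (0.997) and Soat1 (0.99). Sox17 ran with Pga5 (0.992), Dram1 and B020031M17Rik (both 0.99). Pga5, a pepsinogen gene, was at 104 ± 3.6 CPM in day-16 Msx1-negative cells and 8.52 ± 0.87 CPM in Msx1-positive cells. Sox7 ran with Nostrin (0.99), Slc6a2 (0.989) and 1700013H16Rik (0.987). Foxa2 had Enpep (0.99), S100g and Sparc (both 0.988) as its closest, Foxa1 had Adcy7 (0.987), Dapk2 (0.981) and Gata6 (0.979), and Hnf4a had Nkain4 (0.993), Serpinb9b (0.986) and Lgals9 (0.984). Foxa3 stood nearest to Phlda2 (0.981), Ap1m2 (0.976) and Crb3 (0.973), each of which was highest in cells labelled ES.

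The counting program is not named, so whether it used strand and how it treated reads shared by 2 genes are not known. Sox17 shares 804 exonic bases with Gm37587 and Gata6 shares 93 with 1010001N08Rik, both annotated on the opposite strand. Reads from those stretches may have been counted for either gene or left out. Gm37587 itself had 12 counts over the day-16 Msx1-negative libraries. Counts per gene do not separate the transcripts of Hnf4a that start at its 2 RefSeq promoters.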

How the data were processed

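The authors deposited 2 tables of raw counts per gene symbol, unnormalised by their values. The tools listed, per the submitters' processing notes, are HISAT2 2.1.0, fastp 0.20.0 and DESeq2 1.18.1, with the build GRCm38. The sources used here do not name the counting program or its annotation. Column headers at day 2 give only the line (Dlx2 or GFP), not doxycycline, and were taken for the induced EBs because the design text compares overexpressing EBs. Of 18 labelled samples, the 4 uninduced ones were not analysed here. Genes were filtered by filterByExpr, scaled by TMM and tested with edgeR 4.0.16 (glmQLFit with robust estimation, glmQLFTest, two-sided) in R 4.3.3, in fits of 4 day-2 libraries, 8 sorted libraries, and 10 libraries for comparisons with ES cells. The SE is the absolute log2 change over the square root of F. The scripts were tested on simulated data. Coordinates, exonic lengths and overlaps come from GENCODE vM21 (GRCm38) by symbol. Replicates differed by more than sampling noise. The named genes are the 8 factors, in each list up to 4 called genes with the largest change and a mean of at least 1 CPM, the 3 most alike genes, GATA and SoxF paralogs, overlapping genes, Dlx2 and Msx1. Outside this rule, Cxcr4, Hhex, Pdx1, Ttr, Lrp2, Sall4, Apoa2, Apob and Lamc1 were chosen after their values were seen. So were Col4a1, Col4a2, Sparc, Afp, Cubn, Nkx2-5, Nr5a2, Cer1, Lhx1, Gsc, Plat, Pdgfra and Thbd where the rule does not name them. Some genes that this rule names are not reported here. The factors, lists and motif letters were chosen with earlier results of these data known. Alternatives were RLE scaling, library size alone, DESeq2 1.42.0, 2 other filters, a replicate block, the 10-library fit and leaving out each library.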

Additional observations from a re-analysis of the deposited data

Results flagged for a closer look

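The Msx1 difference changed between day 8 and day 16, by the interaction test in edgeR, for 5 of the 8 factors, each in the lower direction. Of all genes tested, 18.3% were called in that direction and 10.3% in the other. The log2 change of the Msx1-positive over Msx1-negative ratio, day 16 minus day 8, was -2.84 for Gata4, -2.72 for Sox7, -2.50 for Sox17, -1.68 for Foxa2 and -0.40 for Gata6. The call for Gata6 was lost when certain single libraries were left out, as given above. Gata4 is the one of the 5 whose difference was called in opposite directions at the 2 stages, at 0.78 on day 8 and -2.06 on day 16.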

How the results depend on the processing

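The number of genes called stayed within 1.5 times under every alternative run, and so did the number of the 8 factors called. That number ranged from 4 to 6 at day 2 and from 4 to 5 for the change of the Msx1 difference. Of 64 called changes of single factors, 60 kept their direction and call in all settings; the exceptions, Sox7 at day 2 and in day-16 Msx1-positive against ES cells, Gata6 in the interaction and Foxa3 in day-8 Msx1-negative against ES cells, are given with their results. Signs reversed only where no difference was called: Foxa2 at day 8 without Msx1-negative replicate 2 (-0.080, in a range to 0.36 when either library of a group was left out), Foxa1 at day 16 without Msx1-negative replicate 1 (-0.12) or Msx1-positive replicate 1 (-0.044, range -0.12 to 0.27), Foxa3 with time in Msx1-positive cells without day-16 replicate 1 (0.027, range -0.23 to 0.027), and Hnf4a in day-8 Msx1-positive against ES cells by library size alone (0.024). The causes were not tested. Sox17 at day 2 was called by library size alone (1.22, adjusted p = 0.0448) and without GFP replicate 1 (1.61, adjusted p = 0.0403).

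Leaving out one library gave 10490 to 12283 called genes at day 2, 10585 to 11238 for the day-8 sort, 12229 to 12600 for the day-16 sort and 5267 to 6081 for their difference. It gave 8685 to 9212 with time in Msx1-positive and 6329 to 6647 in Msx1-negative cells. The lone library left in a group was then assumed to vary like the other groups. With the replicate number as a block, 11959 genes were called at day 8 and 13682 at day 16, and no call of the 8 factors changed. Same-numbered libraries deviated together weakly at most (correlations of -0.0465 to 0.117 over 10 pairs of groups), so the numbers were not taken as pairs. The block was not run at day 2, where the columns name a line and could be matched to a group but not to a numbered sample, so that replicate numbers there only name columns. Without TMM, on library size only, the median over all genes shifted by more than 0.1 in 6 comparisons: it was 0.2 (TMM 0.02) at day 2, 0.22 (0.06) at day 8, -0.28 (-0.1) for the interaction, -0.15 (-0.03) with time in Msx1-positive cells, and 0.3 (0.11) and 0.17 (0.06) in day-8 Msx1-positive and day-16 Msx1-negative cells against ES. The share of higher genes among all calls was then 63.6% at day 2 (50.8% with TMM), 66.8% at day 8 (55.6%), 15.5% for the interaction (35.9%), 34.7% with time in Msx1-positive cells (46.0%) and 62.9% in Msx1-negative cells (52.5%). Depth limits Hnf4a, Sox17 and Foxa2 at day 2 and Foxa2 in ES cells, each with few counts.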
